A study of Mus musculus with 2 samples.

Results

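Cell division leaves a transcript record that follows its phases, and 35 genes of that record were counted in single cells of the injured mouse retina. They were taken by symbol out of the 31053 genes in the count matrices. Of these, 13 serve DNA replication, 19 serve mitosis, and 3 (Stmn1, Hmgb2 and Tubb5) are also carried by many cells that do not divide and were kept apart as broadly expressed. The study profiled retinal cells of C57BL/6 mice aged 6 to 8 weeks, 2 weeks after optic nerve injury. One group received PBS, the vehicle, and the other an agent named MSC-sEV in the labels; every mouse was injured, and no uninjured group was analysed here. Each group was 1 library made from the pooled retinas of 6 mice after enrichment for CD45, the surface protein of leukocytes, on magnetic beads. Because the groups had 1 library each, no difference between them can be tested over mice. Intervals below are 95% intervals that cover counting error only, and a gene is called higher or lower at a 2-fold ratio of CPM, the unique molecular identifiers (UMIs, counted transcripts) of a gene per 1000000 UMIs of the cells named.

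A cell that enters the cycle first makes cyclin E and the enzymes of nucleotide synthesis, loads the Mcm2-7 helicase onto its origins, and copies its DNA with the sliding clamp Pcna. Later it makes cyclins A and B, the kinase Cdk1 and the spindle and kinetochore proteins that part the chromosomes. E2F factors are known for driving the replication genes, and the DREAM and B-Myb-FoxM1 complexes, through CHR elements, the mitosis genes. Microglia, the resident macrophages of the retina, divide rarely in the healthy tissue and are known to proliferate after injury.

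The matrices held 1676 barcodes with 8439740 UMIs for PBS and 2593 with 16987131 for MSC-sEV, and no barcode occurred in both. Barcodes were kept as cells from 500 UMIs and 300 genes upward where mitochondrial UMIs did not exceed 15%, which left 1347 (median 2601 UMIs) and 2323 (median 2920 UMIs) of them. Cells were clustered on variable genes that held no cell cycle or histone gene, so that the members did not make the classes they are compared across. Classes with leukocyte names made up 7.94% of PBS and 37.9% of MSC-sEV cells although the labels name the cell type as retina immune cells, and rod-like cells were the most numerous class (688 and 1221). Microglia-like cells, 107 in PBS and 417 in MSC-sEV, formed 2 clusters. One was shallow (median 1296 and 2721 UMIs in PBS and MSC-sEV) and one deep (9875 and 15059.5 UMIs). In the shallow cluster rod markers summed to 38641 CPM in PBS and 17843 in MSC-sEV, above its microglia markers at 6356 and 5321 CPM. In the deep cluster rod markers stood at 4862 and 2830 CPM and microglia markers at 19029 and 8700 CPM. The microglia-like name is therefore weaker for the shallow cluster, with 67 of the PBS and 197 of the MSC-sEV cells. Of the microglia-like cells, 49.5% and 64.7% held a UMI of Ptprc, the gene of CD45, against 1.02% and 2.46% of rod-like cells. Monocyte or macrophage-like, dendritic, T cell-like and eosinophil-like cells were found in the MSC-sEV library and numbered 0 in PBS, so these classes have no PBS value.

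The promoters of members that moved together are shown first, since the 2 lists differ in their sequence. Promoters were taken from RefSeq on GRCm38.p6, 250 bases before to 50 after each gene's start, and 28 of the 35 members had an entry; Mcm4, Ccne2, Hist1h1b, Ccna2, Aurkb, Tpx2 and Stmn1 had none. The CHR element TTTGAA, on either strand, lay in 12 of 16 mitosis members (75%), 1 of 10 replication members (10%) and 20.2% of 27025 genes. An E2F element was any of 4 forms on either strand, where the first form reads TTGGCGC, while another form is TTCCCGC, another form is TTCGCGC and the last form is TTGCCGC. One of these lay in 6 of 10 replication members (60%), 3 of 16 mitosis members (18.75%) and 10.9% of genes. CCAAT, the box of NF-Y, which can overlap the first E2F form on the opposite strand, lay in 8 of 10 and 15 of 16, against 41.1% of genes. These are matches of letters and not measured binding. Below are the 250 bases before the start of Rrm1 (chr7:102441445-102441694, plus strand) and Mcm7 (chr5:138171884-138172133, minus strand) with E2F elements in capitals, 67 and 165 bases before it. They are the 2 replication members with the most UMIs in MSC-sEV microglia-like cells among those with an element in that stretch (in Mcm3 it lies after the start and is not shown). Mcm7 had 2 promoter entries, of which 1 is printed. That stretch lies inside the gene as annotated in GENCODE, chr5 138164583 to 138172422.
Rrm1: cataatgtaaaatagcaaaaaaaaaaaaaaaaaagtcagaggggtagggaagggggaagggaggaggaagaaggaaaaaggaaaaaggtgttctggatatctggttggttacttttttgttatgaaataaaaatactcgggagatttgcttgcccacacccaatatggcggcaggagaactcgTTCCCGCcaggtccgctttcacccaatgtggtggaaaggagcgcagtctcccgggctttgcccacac
Mcm7: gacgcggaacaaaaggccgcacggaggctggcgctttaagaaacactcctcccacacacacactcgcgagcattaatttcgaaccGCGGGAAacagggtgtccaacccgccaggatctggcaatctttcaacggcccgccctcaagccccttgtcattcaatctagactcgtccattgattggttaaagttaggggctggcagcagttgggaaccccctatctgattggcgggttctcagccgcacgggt

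Top2a (chr11:99024190-99024439, minus strand) and Mki67 (chr7:135716380-135716629, minus strand) were the 2 mitosis members with the most UMIs that hold CHR, here in capitals. Top2a has the element 179 and 23 bases before its start and Mki67 116 and 98 bases before.
Top2a: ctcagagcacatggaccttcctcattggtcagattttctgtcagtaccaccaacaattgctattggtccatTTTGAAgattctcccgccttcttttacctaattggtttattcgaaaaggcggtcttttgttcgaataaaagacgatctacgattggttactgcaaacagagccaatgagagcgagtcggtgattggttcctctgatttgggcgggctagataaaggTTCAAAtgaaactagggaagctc
Mki67: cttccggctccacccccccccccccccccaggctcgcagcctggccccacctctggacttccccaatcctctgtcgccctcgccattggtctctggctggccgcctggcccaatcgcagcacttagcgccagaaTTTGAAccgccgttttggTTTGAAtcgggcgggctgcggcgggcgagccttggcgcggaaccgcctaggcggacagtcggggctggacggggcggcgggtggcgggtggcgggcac

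In 4 other mitosis members with CHR, and in Mcm6 with overlapping E2F elements, the last 80 bases before the start hold the element, in capitals. These members were printed because the element falls there. Cenpf, Cenpa, Bub1b, Ccnb2, Plk1 and Aurka also held CHR, and Mcm3, Mcm5 and Rrm2 an E2F element, but not within those 80 bases. The printed stretches lie at chr4:118437344-118437423 (Cdc20, minus), chr10:69352913-69352992 (Cdk1, minus), chr19:37376302-37376381 (Kif11, plus), chr2:164769849-164769928 (Ube2c, plus) and chr1:128359706-128359785 (Mcm6, minus). In Kif11 and Ube2c the element reads TTCAAA, its opposite strand.
Cdc20: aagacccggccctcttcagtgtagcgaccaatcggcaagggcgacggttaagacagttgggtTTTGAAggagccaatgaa
Cdk1: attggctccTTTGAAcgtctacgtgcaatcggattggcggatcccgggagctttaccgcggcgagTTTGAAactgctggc
Kif11: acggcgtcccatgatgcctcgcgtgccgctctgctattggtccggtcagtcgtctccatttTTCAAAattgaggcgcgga
Ube2c: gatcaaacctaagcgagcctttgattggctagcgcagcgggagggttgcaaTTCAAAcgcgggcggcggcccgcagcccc
Mcm6: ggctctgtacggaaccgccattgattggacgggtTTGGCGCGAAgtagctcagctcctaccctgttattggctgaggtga
Of the genes outside the member lists, 14 of 19 other replication genes (73.7%) held an E2F element and 24 of 36 other mitosis genes (66.7%) held CHR.

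In the MSC-sEV library, microglia-like cells carried both phases of the record; in the PBS library their sums did not exceed the background. The 13 replication members summed to 77 UMIs in PBS (117 CPM, 92.2 to 146) and 2987 in MSC-sEV (650 CPM, 627 to 673). The 19 mitosis members summed to 19 UMIs (28.8 CPM, 17.4 to 45.0) and 4355 (947 CPM, 919 to 976). Mitosis members therefore made up 19.8% (12.4 to 29.2) of the replication and mitosis UMIs in PBS and 59.3% (58.2 to 60.4) in MSC-sEV. In rod-like cells, which are postmitotic photoreceptors and serve as the background, the same sums were 151 and 52.5 CPM in PBS and 160 and 102 CPM in MSC-sEV. The PBS microglia-like sums lay below the rod-like ones, and the MSC-sEV sums lay above them. The rod-like background differed between libraries too. There 3 of 5 mitosis and 0 of 8 replication members with at least 20 UMIs were at least 2-fold higher in MSC-sEV, against 15.1% of rod-like genes. Of the mitosis members, Mki67 (1 and 22 UMIs) met that minimum through MSC-sEV. The cause of this difference was not tested.

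That background came from a few genes. In MSC-sEV rod-like cells Bub1b gave 150, Ccna2 64 and Cenpe 64 of the 376 mitosis UMIs, and Pcna gave 312 of the 593 replication UMIs. In PBS rod-like cells Bub1b gave 102 of 173 and Pcna 272 of 496. Mki67 stood at 1 UMI in PBS and 22 in MSC-sEV rod-like cells and Top2a at 0 and 6. Birc5, Ube2c and Rrm2 were at 0 UMIs in PBS rod-like cells and at 11, 8 and 1 in MSC-sEV, and Ccne1, Aurkb and Bub1 were at 0 in both.

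**Figure D1:**
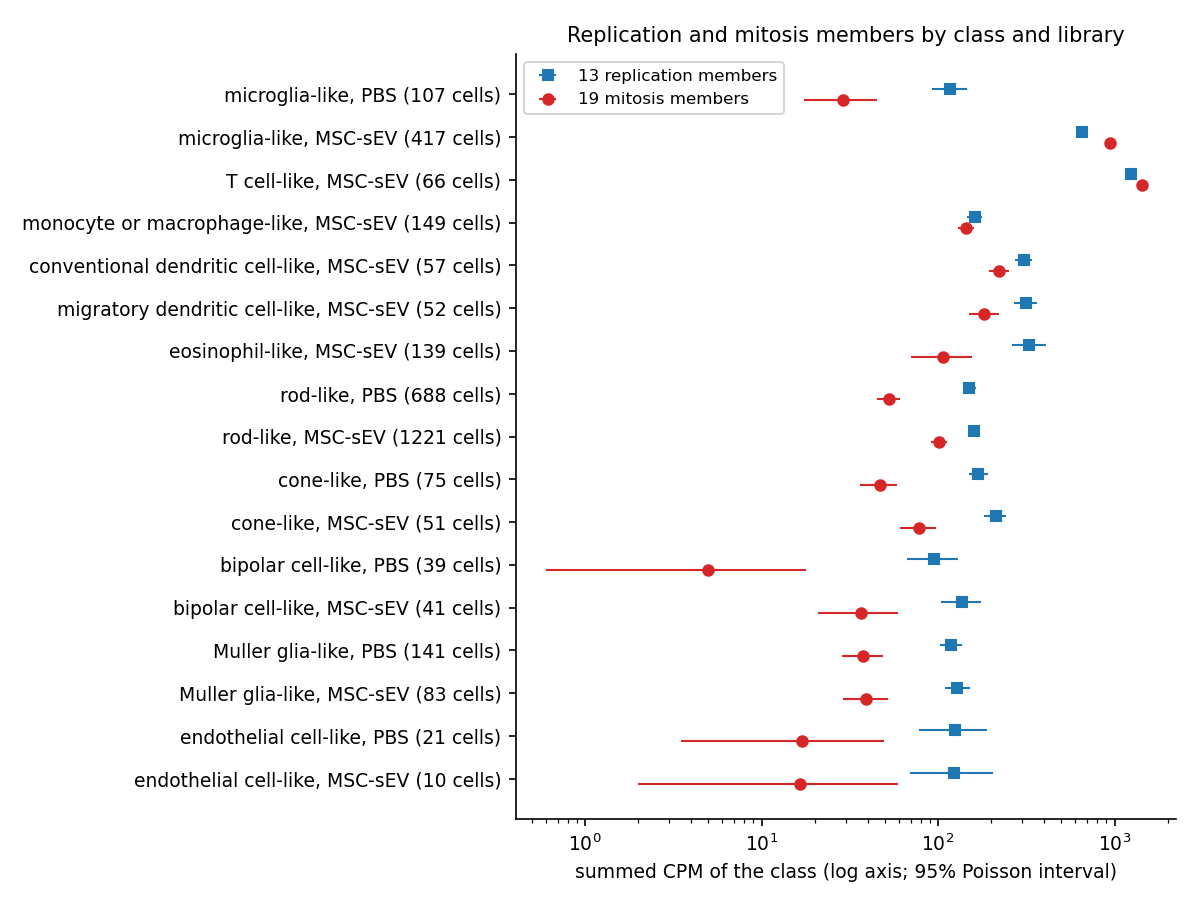
Summed CPM of the 13 replication members (blue squares) and 19 mitosis members (red circles) per class and library on a log axis, with exact 95% Poisson intervals; the number of cells is in brackets. The mitosis sum lies right of the replication sum only in MSC-sEV microglia-like cells (947 against 650 CPM) and, with all cells of the class, T cell-like cells (1427 against 1245 CPM), where the order turned to 1454 against 1564 CPM without 8 cells with microglia transcripts.

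All 35 members had at least 20 UMIs over both microglia-like sums, and 33 were at least 2-fold higher in MSC-sEV, where 12.8% of the 10555 genes with as many UMIs were; 0 members were at least 2-fold lower, against 7.34% of genes. The other two, Mcm3 and Tubb5, stood at ratios of 1.70 (1.13 to 2.67) and 1.69 (1.47 to 1.94). The median ratio was 5.73 for replication members, 8.17 for mitosis members and 1.05 for all genes. In PBS 4 replication and 14 mitosis members had 0 UMIs, as had 339 of the 10555 genes. These members met the minimum through MSC-sEV alone and could not be called lower. A 0 in PBS was set to 3 UMIs, so the replication and mitosis medians rest in part on that value. Ratios made this way are called floored below and are not lower limits.

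Among the replication members, Pcna, the clamp that holds the polymerases on DNA (GRCm38 chromosome 2, 132249162 to 132253314), went from 31 UMIs in PBS to 669 in MSC-sEV, 47.0 and 146 CPM (3.09-fold, 2.16 to 4.59). The 6 helicase subunits split: Mcm3 was already at 25 UMIs in PBS, while Mcm5 went from 1 UMI to 173 (24.8-fold, 4.39 to 985) and Mcm2 from 1 to 99 (14.2-fold, 2.49 to 566). Mcm7 had 2 and 197 UMIs, Mcm4 3 and 120, and Mcm6 5 and 195 (5.59-fold, 2.36 to 17.4). Mcm3 was also the 1 replication member that exceeded the rod-like level 2-fold in PBS microglia-like cells, of 5 with at least 20 UMIs over both classes (20.3% of all genes did so).

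Cyclins E1 and E2 (Ccne1, Ccne2), which bring cells into S phase, were at 0 UMIs in PBS and at 62 and 64 in MSC-sEV. Their floored ratios were 2.96 and 3.06. Of the enzymes that supply deoxynucleotides, Rrm2, the subunit of ribonucleotide reductase made in S phase, had 0 and 160 UMIs (7.65-fold, floored). Its partner Rrm1 had 6 and 216 UMIs (5.16-fold, 2.33 to 14.2) and Tyms, thymidylate synthase, 3 and 121 (5.78-fold, 1.93 to 28.4). Hist1h1b, a linker histone made with replication (chromosome 13, 21779883 to 21780625), had 0 and 615 UMIs (29.4-fold, floored). Reads of such histone genes can be shared among near-identical copies, so that single value is uncertain.

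Among the mitosis members, the proliferation antigen Mki67 (chromosome 7, 135689784 to 135716361) went from 0 UMIs in PBS to 600 (28.7-fold, floored). Top2a, the topoisomerase that untangles copied chromosomes (chromosome 11, 98992943 to 99024189), had 0 and 756 UMIs (36.1-fold, floored). Of the cyclins and their kinase, Ccna2 had 0 and 171 UMIs, Ccnb1 0 and 96, Ccnb2 0 and 147, and Cdk1 1 and 210 (30.1-fold, 5.35 to 1195). The floored ratios of the first 3 of these were 8.17, 4.59 and 7.03.

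The kinases that run mitosis followed: Plk1 had 0 and 89 UMIs, Aurka 0 and 52, Aurkb 1 and 124 (17.8-fold, 3.13 to 708), and the checkpoint kinase Bub1 0 and 61. Bub1b, the other checkpoint member, was the lowest of the mitosis ratios without a 0 in PBS, with 6 and 153 UMIs (3.66-fold, 1.64 to 10.1). Of the kinetochore and chromatin proteins, Cenpf had 6 and 342 UMIs (8.17-fold, 3.72 to 22.4). Cenpa, the centromeric histone, had 5 and 191 (5.48-fold, 2.31 to 17.1), and Cenpe 0 and 294 (14.1-fold, floored). The passenger protein Birc5 had 0 and 269 UMIs, and the spindle proteins Kif11 and Tpx2 0 and 121 and 0 and 203. Ube2c and Cdc20, which work with the anaphase-promoting complex to end mitosis, had 0 and 390 (18.6-fold, floored) and 0 and 86 UMIs (4.11-fold, floored). Every one of the 19 thus passed the 2-fold rule, and 18 of them also exceeded MSC-sEV rod-like cells 2-fold (27% of all genes did). Bub1b did not. Of the replication members, 11 of 13 exceeded rod-like cells 2-fold, all except Pcna and Tyms.

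The broadly expressed members differed less. Stmn1, which destabilises microtubules, had 17 and 994 UMIs (8.38-fold, 5.21 to 14.4), Hmgb2, a chromatin protein, 100 and 1628 (2.33-fold, 1.91 to 2.89), and Tubb5, a beta tubulin, 224 and 2633. Their sum was 517 CPM in PBS and 1143 in MSC-sEV microglia-like cells, against 945 and 811 CPM in rod-like cells.

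**Figure D2:**
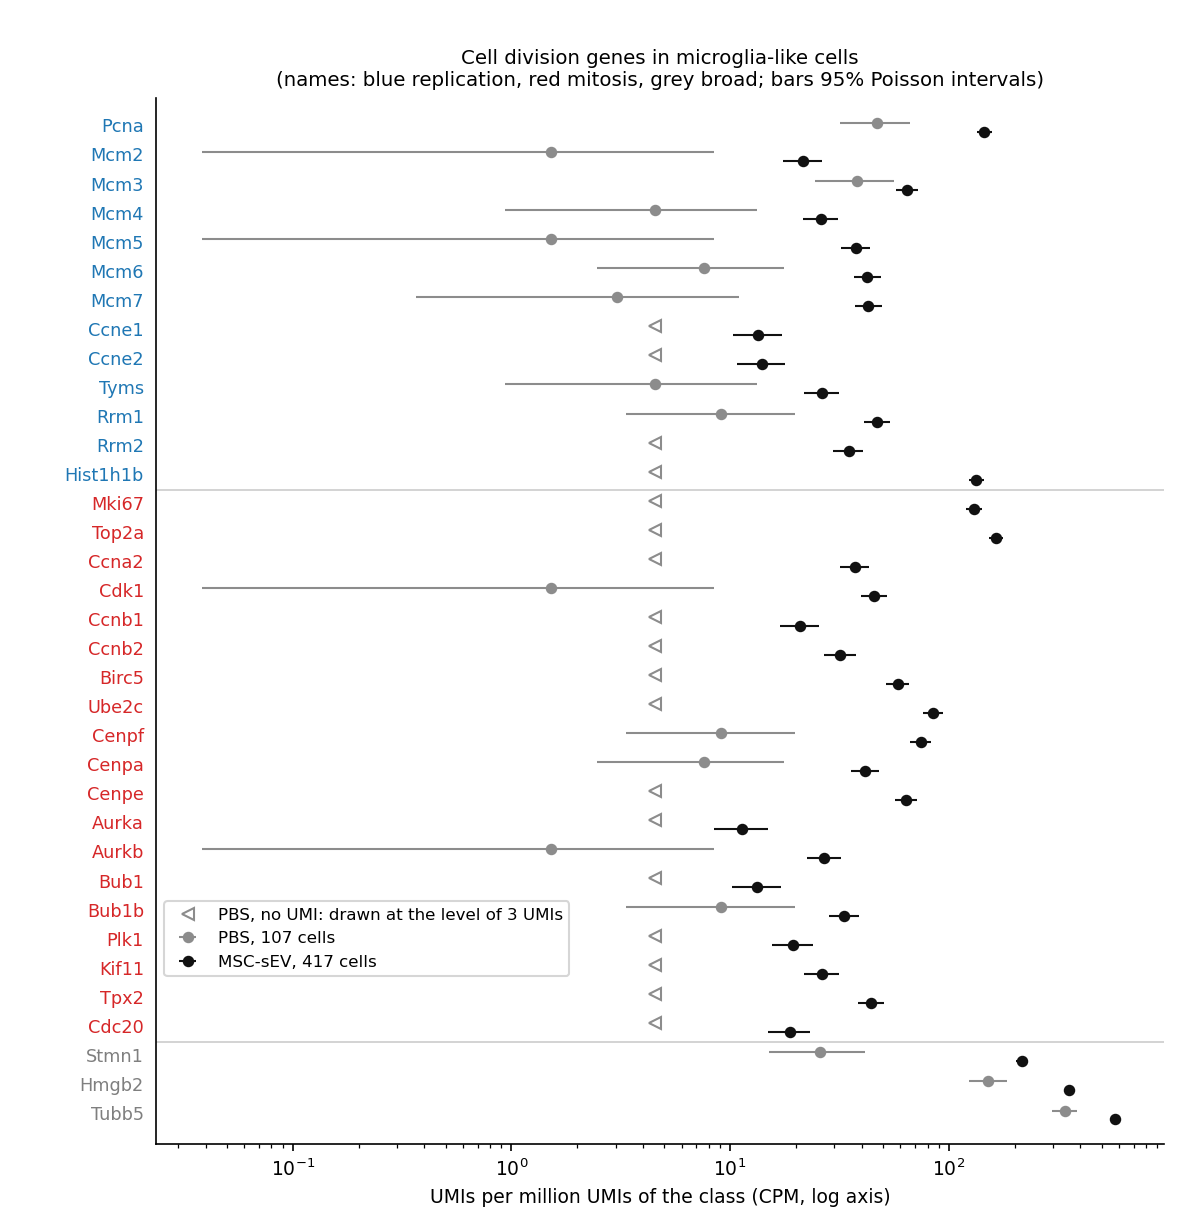
CPM of each member in microglia-like cells on a log axis, PBS in grey and MSC-sEV in black, with exact 95% Poisson intervals; open triangles mark members with no UMI in PBS, drawn at the level of 3 UMIs. Every black point lies right of its grey one, and 18 members of the replication and mitosis lists have a triangle, 4 and 14 of them.

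The rest of the pathway was read from lists of genes that are no members. Of 29 other replication genes with at least 20 UMIs, 16 were at least 2-fold higher in MSC-sEV microglia-like cells and 0 lower (median ratio 2.80). Atad2, a chromatin ATPase, was among them (7 and 320 UMIs, 6.55-fold, 3.14 to 16.4), while the histone mRNA binder Slbp stood at 1.27 (0.92 to 1.81) and the clamp loader subunit Rfc2 at 1.34 (0.93 to 1.99). Of 42 other mitosis genes, 34 were higher and 0 lower (median 5.17). Of these 42 genes 20 had 0 UMIs in PBS, as had 7 of the 29, and these could not be called lower. Examples were the condensin subunit Smc4 (11 and 449 UMIs, 5.85-fold, 3.24 to 11.8), the Cdk subunit Cks1b (2 and 256 UMIs, 18.4-fold, 5.03 to 152) and the centromere chaperone Hjurp (16 and 273 UMIs, 2.45-fold, 1.48 to 4.34).

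Histones, G1 genes and inhibitors followed, to be read against the 12.8% of all genes that were higher and the 7.34% that were lower. Of 16 replication-dependent histones, 7 were at least 2-fold higher (median 1.56), and the 3 with the most UMIs were not: Hist1h2bc stood at 0.63 (0.53 to 0.75), Hist1h4d at 1.15 and Hist1h1c at 1.08. Of 10 G1 cyclins and kinases, 5 were higher (median 1.88): Cdk4 stood at 2.27 (1.49 to 3.63), its partner Ccnd3 at 1.64 (1.04 to 2.74) and Ccnd1 at 0.91 (0.71 to 1.17). Of 12 cell cycle inhibitors, 2 were higher and 1 lower (median 0.97), near those shares of all genes. Cdkn1a, the p21 inhibitor, had 15 and 459 UMIs (4.39-fold, 2.63 to 7.90), Btg2, an antiproliferative gene, stood at 0.65 (0.60 to 0.70), and Btg1 at 1.10 (0.98 to 1.23).

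Which cells carried these transcripts was asked at equal depth: each cell was thinned to 1000 UMIs, and a cell was counted for a list when it then held UMIs of at least 2 different members. Thinning left out 328 PBS and 338 MSC-sEV cells below that depth. In PBS microglia-like cells, 0 of 80 were counted for either list. This allows a share of up to 3.75% by a limit of 3 cells (the exact binomial bound is 4.51%). Of the 80 cells, 6 held 1 replication member and 2 held 1 mitosis member. The shallow cluster, whose rod markers exceed its microglia markers, gave 40 of the 80. In MSC-sEV, 28 of 373 microglia-like cells were counted for replication (7.51%, 5.05 to 10.7) and 46 of 373 for mitosis (12.3%, 9.17 to 16.1). In rod-like cells the shares were 6 of 1022 and 2 of 1022 in MSC-sEV, and 6 of 592 and 0 of 592 in PBS. Both MSC-sEV microglia-like shares exceeded the rod-like ones. Without thinning, the microglia-like shares were 13.1% and 1.87% in PBS and 41.5% and 28.5% in MSC-sEV. The rod-like ones were then 11.2% and 2.33% in PBS and 6.47% and 3.11% in MSC-sEV. Unthinned shares did not set microglia-like cells apart from every class. For either list they were 49.6% in microglia-like, 49.7% in monocyte or macrophage-like and 66.7% in cone-like MSC-sEV cells. At 1000 UMIs the same shares were 16.9%, 2.04% and 2.13%. Median depths were 3218 and 5931 UMIs for microglia-like and 2669.5 and 2464 UMIs for rod-like cells in PBS and MSC-sEV. The count is a threshold on a range and not a cell type: of the replication cells 18 of 28 held exactly 2 members, of the mitosis cells 14 of 46 did, and 73 and 44 further cells held 1.

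Of the 58 MSC-sEV cells counted for mitosis, 46 were microglia-like (79.3%, 66.6 to 88.8), 6 T cell-like, 2 rod-like, and 1 each monocyte or macrophage-like, conventional dendritic cell-like, migratory dendritic cell-like and eosinophil-like. The 56 counted for replication spread more widely: 28 were microglia-like (50%, 36.3 to 63.7), 11 T cell-like and 6 rod-like. In PBS, 10 cells of 1019 were counted for replication (6 rod-like, 3 cone-like and 1 Muller glia-like) and 0 for mitosis. Monocyte or macrophage-like cells, although leukocytes of the same library, had 2 and 1 of 147 cells counted. Their sums were 161 CPM for replication and 144 CPM for mitosis, and the mitosis sum stood above the rod-like 102 CPM; Mki67 gave 70 of its 383 UMIs, in 31 of 149 cells, and Cenpa 66, in 33 cells. In them 2 of 8 replication and 7 of 10 mitosis members with at least 20 UMIs over both classes exceeded the rod-like level 2-fold, against 24.5% of all genes. Some members met that minimum mainly through the class where they are high, as Top2a (24 UMIs against 6 in rod-like cells) and Ube2c (34 against 8). The mitosis count depends on the filter for that reason.

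**Figure D3:**
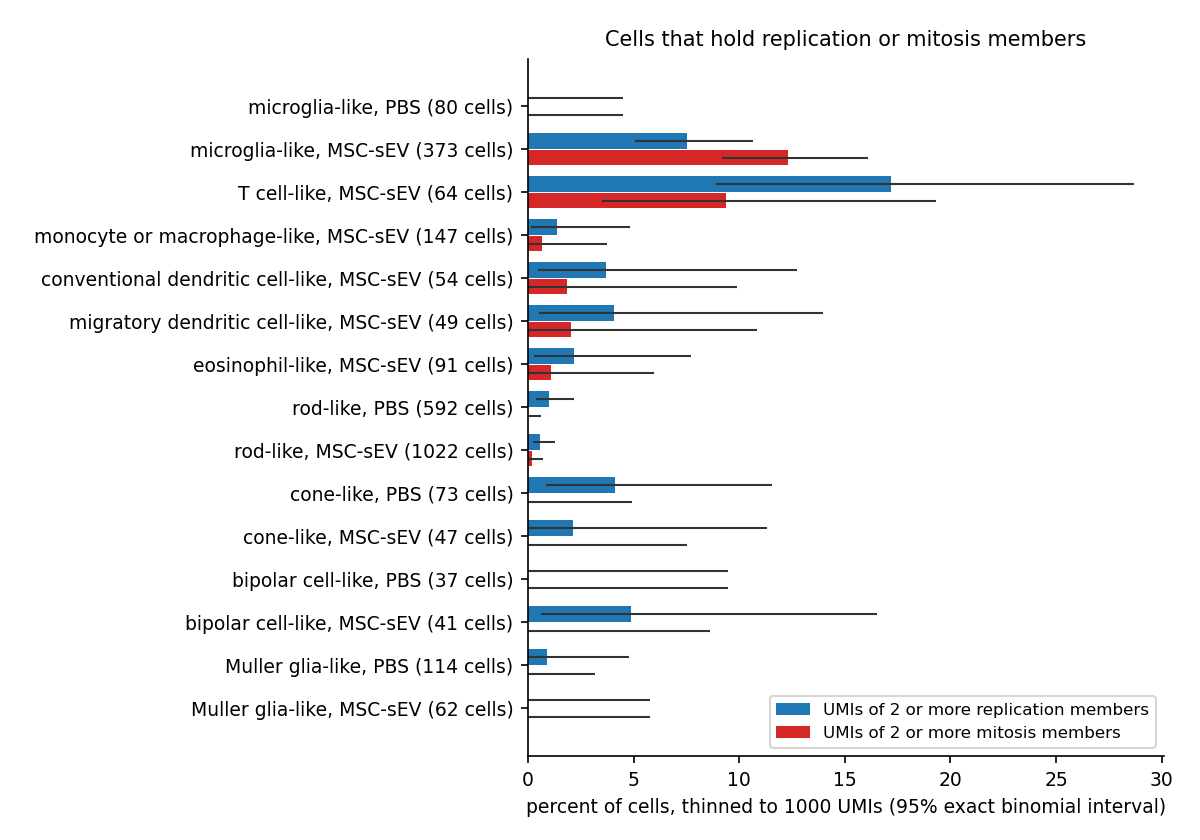
Percent of cells that held UMIs of at least 2 replication members (blue) or 2 mitosis members (red) after thinning to 1000 UMIs, for classes with at least 30 such cells; lines are exact 95% binomial intervals. MSC-sEV microglia-like cells reach 7.51% and 12.3% and T cell-like cells 17.2% and 9.38%, the last resting on 6 cells, while PBS microglia-like cells are at 0 for both.

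Within MSC-sEV microglia-like cells, the 63 cells counted for either list (16.9%, 13.2 to 21.1) fell into 17 with replication only, 11 with both and 35 with mitosis only; 310 had neither. In the shallow cluster 31 of 153 cells and in the deep cluster 32 of 220 were counted. The balance of the groups depended on depth: thinned to 2000 UMIs, 25 of 333 cells had replication only, 28 both and 24 mitosis only, and without thinning 88, 85 and 34 of 417. The excess of mitosis-only over replication-only cells was thus seen at 1000 UMIs and not at the other depths. The median depth was 8051 UMIs in cells with neither, 3535 with replication only, 15855 with both and 7427 with mitosis only. These transcripts were not spread evenly: 10 cells, all of the deep cluster with 29449 to 68667 UMIs each, held 50.6% of the replication and mitosis UMIs. The deepest in mitosis transcripts held 408 UMIs of all 19 mitosis members and 156 of replication members, and another held 311 mitosis and 5 replication UMIs. Without these 10 cells the class sums were 384 and 494 CPM, and 29 of the 35 members were at least 2-fold higher than in PBS.

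Each member was then compared between mitosis-only and replication-only cells, with the groups made afresh without that member. Of the 19 mitosis members, 14 were at least 2-fold higher in mitosis-only cells, where 7.13% of 5200 genes with at least 20 UMIs were; 7 of 13 replication members were at least 2-fold higher in replication-only cells, against 5.33%. The late genes stood farthest apart: Cenpa at 14.6-fold (5.56 to 54.7; 114 UMIs in 34 cells against 4 in 17), Ube2c at 9.27 (5.20 to 18.2), Cdc20 at 7.43 (2.75 to 28.2), and Ccnb1 and Ccnb2 both at 6.84. Plk1 stood at 6.11 (2.24 to 23.3), Birc5 at 4.60 (2.70 to 8.45), Cenpe at 3.93 and Cenpf at 3.30. Mki67, at 2.54 (1.91 to 3.44), Cdk1, at 2.49 (1.54 to 4.20), and Ccna2, at 2.74 (1.59 to 5.01), stood lower.

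Top2a did not separate the groups, with 302 UMIs in 33 mitosis-only cells (21 with a UMI) and 191 in 19 replication-only cells (9 with a UMI), a ratio of 1.01 (0.84 to 1.21). The checkpoint and chromosome genes Aurkb (1.30, 0.74 to 2.38), Bub1 (1.25, 0.56 to 3.07) and Bub1b (1.31, 0.83 to 2.12) were also within 2-fold. So was the spindle gene Kif11 (1.55, 0.89 to 2.86). On the replication side Ccne2 was lowest in mitosis-only cells, at 0.26 (0.12 to 0.54), with Rrm2 at 0.34 (0.21 to 0.53), Mcm3 at 0.36 (0.24 to 0.55), Mcm4, Mcm2 and Mcm5 at 0.40 each and Mcm7 at 0.45 (0.26 to 0.78). Pcna stood at 0.63 (0.47 to 0.84), Ccne1 at 0.53 (0.22 to 1.33), and Mcm6, Tyms and Rrm1 at 0.91, 0.92 and 0.90 with intervals that span 1.

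Hist1h1b stood on the other side, at 1.35 (1.10 to 1.67), with 411 UMIs in 41 mitosis-only cells and 117 in 17 replication-only cells, 3 of which held them. That direction rests on few cells: without the 10 cells rich in these transcripts it turned to 0.63 (0.43 to 0.93). Without the same cells 15 mitosis members were at least 2-fold higher in mitosis-only cells, now with Bub1b (2.20, 0.93 to 5.97) and Kif11 (3.95, 1.19 to 20.5) among them, while Aurka, Aurkb and Bub1 had fewer than 20 UMIs. Top2a stood at 0.83 (0.54 to 1.27), and 6 of the 13 replication members had fewer than 20 UMIs. Of the other 7 replication members, 4 (Pcna, Mcm3, Mcm5 and Rrm2) were at least 2-fold higher in replication-only cells, Pcna newly so at 0.30 (0.18 to 0.51), and Mcm7 stood within 2-fold at 0.56 (0.22 to 1.48). The broadly expressed members leaned to mitosis-only cells: Stmn1 at 2.40 (1.89 to 3.08), Hmgb2 at 1.76 (1.47 to 2.11; without the 10 cells 2.43, 1.83 to 3.29) and Tubb5 at 1.33 (1.13 to 1.56).

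**Figure D4:**
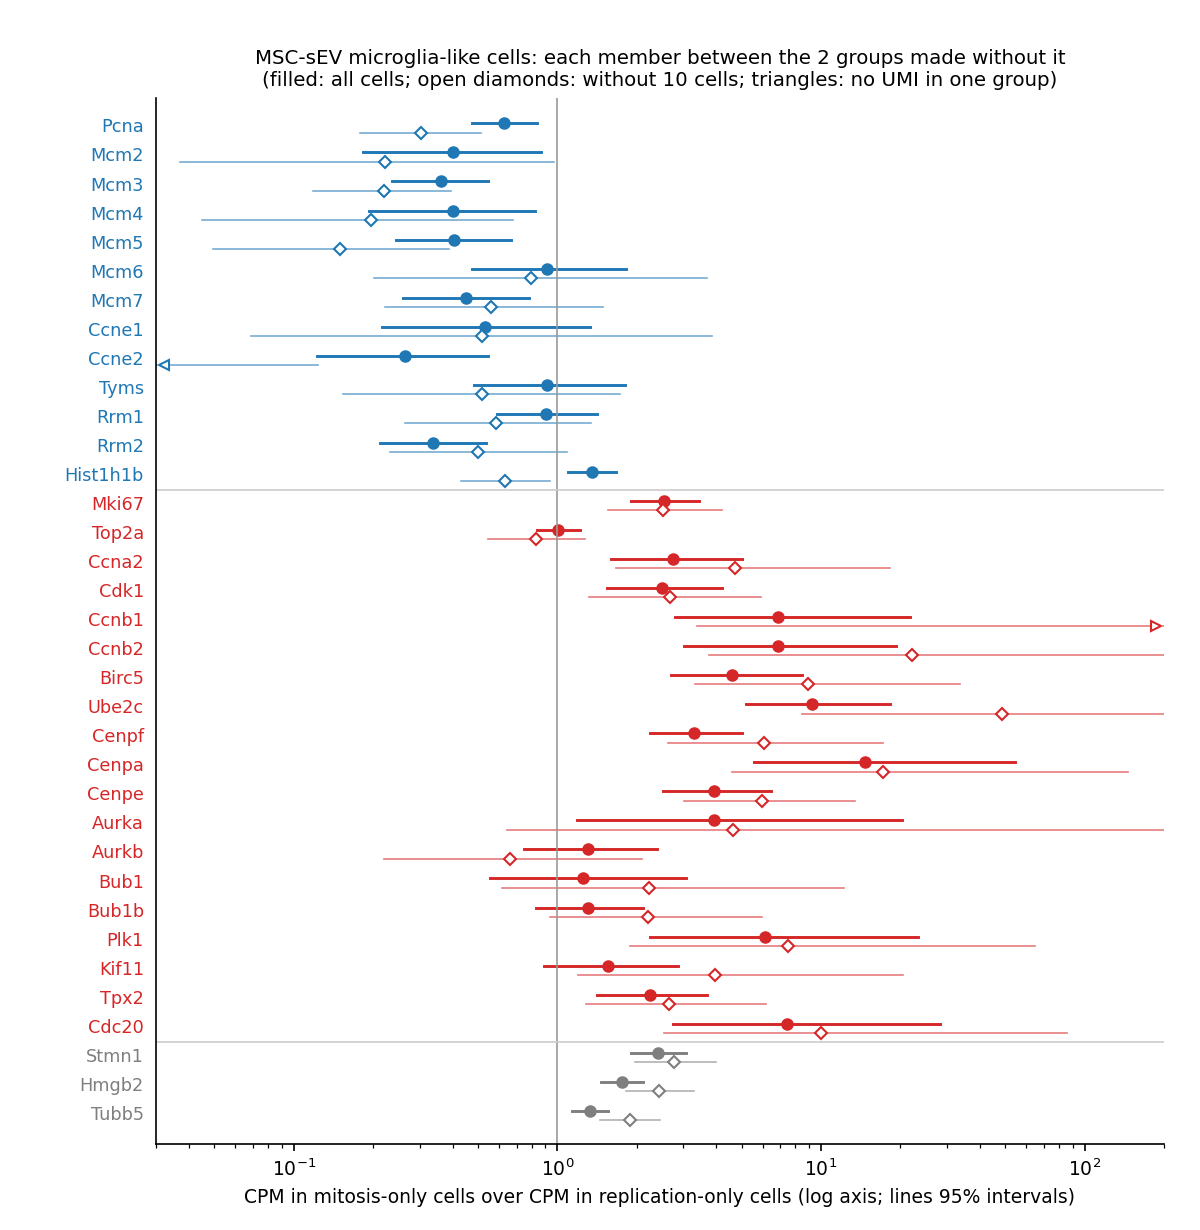
Ratio of each member's CPM in mitosis-only over replication-only MSC-sEV microglia-like cells on a log axis; filled points are all cells, open diamonds leave out the 10 cells richest in these transcripts, triangles mark no UMI in one group, and lines are exact 95% intervals, cut at the axis ends. Replication members (blue) lie mostly left of 1 and mitosis members (red) mostly right, with Top2a at 1.01 and Hist1h1b at 1.35 or, without those cells, 0.63.

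Genes that took no part in making the groups separated them in the same way. Other replication genes summed to 415 CPM in cells with neither list, 2315 with replication only, 3523 with both and 1037 with mitosis only. Of 20 with enough UMIs, 12 were at least 2-fold higher in replication-only than in mitosis-only cells (5.33% of all genes) and 0 the reverse, and Atad2 stood at 257 CPM (60 UMIs) against 115 CPM (55 UMIs). Other mitosis genes summed to 319, 2653, 4746 and 4519 CPM. Of 37, 16 were higher in mitosis-only cells (7.13% of all genes) and 0 in replication-only cells. Cks1b, among the 16, stood at 222 against 107 CPM. Smc4 was not among them, at 333 against 214 CPM. G1 cyclins and kinases were at 391, 629, 705 and 404 CPM, so mitosis-only cells lay near cells with neither list; Ccnd1 stood at 163 CPM with replication only and 59 CPM with mitosis only. Replication-dependent histones peaked in cells with both (3695 CPM, against 483 with neither), and Hist1h4d stood there at 645 CPM (153 UMIs) against 67 CPM.

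The inhibitor list moved little, at 1795, 1857, 1270 and 1619 CPM in the same order. Its abundant members went down, Btg1 from 645 CPM with neither to 240 with both and Btg2 from 787 to 367, while Cdkn1a stood at 304 CPM (71 UMIs) in replication-only cells against 86 with neither. Without the 10 rich cells the order of the other replication genes (415, 1986, 2776 and 665 CPM) and of the other mitosis genes (319, 1784, 3748 and 3512 CPM) held.

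**Figure D5:**
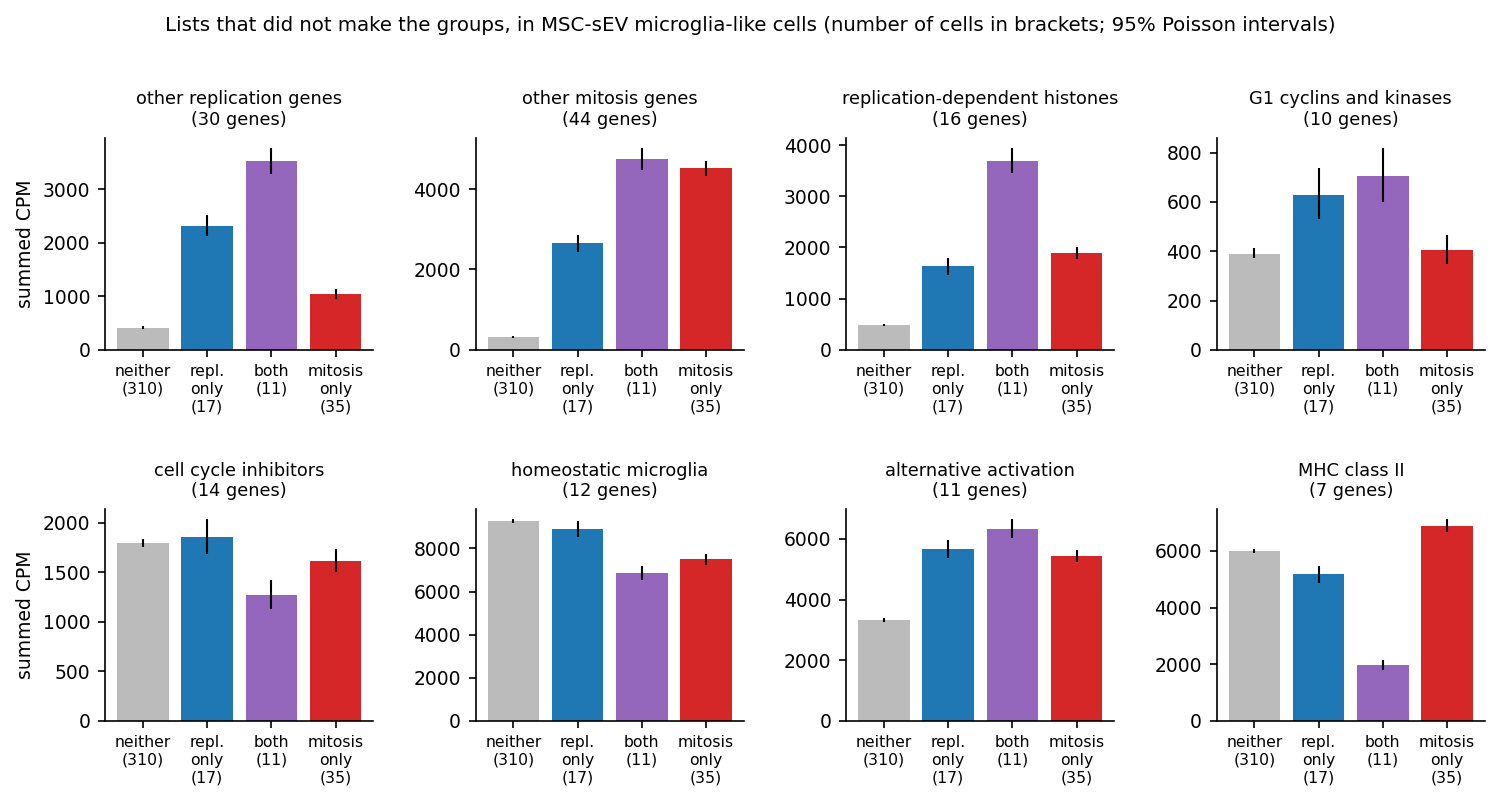
Summed CPM of 8 gene lists in MSC-sEV microglia-like cells counted for neither list (310 cells), replication only (17), both (11) and mitosis only (35), with exact 95% Poisson intervals. Other replication genes fall from 3523 CPM with both to 1037 with mitosis only, while other mitosis genes stay at 4746 and 4519 CPM.

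The counted cells kept the transcripts of microglia. Homeostatic microglia genes, a list of identity genes, summed to 9271 CPM with neither list and to 8904, 6859 and 7493 CPM with replication only, both and mitosis only; Cx3cr1, the fractalkine receptor, stood at 1533, 1403, 1093 and 1188 CPM. Alternative activation genes were at 3326 CPM with neither and at 5661, 6332 and 5437 CPM in the counted groups. Arg1, arginase, stood at 1755 CPM (6349 UMIs) with neither and at 2910, 3054 and 3444 CPM, and Fn1, fibronectin, at 273 against 680, 759 and 558 CPM. Without the 10 rich cells alternative activation was 4711, 4841 and 4047 CPM in the counted groups, still above the 3326 CPM of the rest.

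Antigen presentation genes of MHC class II had no such order, at 5998 CPM with neither and 5173, 1979 and 6893 CPM in the counted groups; without the 10 cells the last became 3839 CPM and lay below the cells with neither. Interferon response genes were at 2454, 1733, 2316 and 3035 CPM. Monocyte genes summed to 630 CPM with neither and 531, 173 and 540 CPM, with Plac8 at 258 against 103, 21 and 54 CPM; S100a4 went the other way in 2 of the 3 groups, at 86 against 257, 55 and 128 CPM. Rod marker transcripts, a measure of retinal RNA from other cells, were at 6069 CPM with neither and 1686, 570 and 2359 CPM.

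Markers of other cells moved with the library in the microglia-like class. The 13 monocyte or macrophage markers summed to 871 CPM in PBS, with 8 of 13 seen and Ccr2, Ly6c2, Vcan, Chil3 and Arg1 at 0, and to 4479 CPM in MSC-sEV with all 13 seen; the 12 microglia markers, all seen in both, summed to 16040 and 8162 CPM. Plasma cell markers stood at 310 and 2245 CPM, T cell markers at 3.03 and 37.0 CPM and rod markers at 12828 and 5219 CPM; the part of these in the member values was not tested. Without every cell that held a UMI of Ccr2, Ly6c2 or Plac8 the sums in MSC-sEV were 602 CPM for replication and 885 for mitosis, and 33 members were still at least 2-fold higher.

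The class of the dividing cells depends on how cells are clustered and named. When cell cycle genes were allowed among the variable genes, 39 of the 63 counted microglia-like cells joined 1 cluster of 121 MSC-sEV cells that took the T cell name. That cluster held 52 cells that are microglia-like and 66 that are T cell-like here. The microglia-like sums then fell to 262 and 151 CPM, the shares to 4.75% and 3.16%, and 14 of 24 testable members were at least 2-fold higher. By the highest marker score of each cell, 40 of the 63 were microglia, 5 monocyte or macrophage, 5 plasmacytoid dendritic cell, 3 plasma cell and 0 T cell. With the stricter cell filter 25 of the 63 lay in clusters named microglia, 30 in unnamed ones and 7 in one named neutrophil, and 1 was left out. At resolution 2.0, 49 were microglia and 14 unnamed.

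T cell-like cells, 66 in the MSC-sEV library, held UMIs of both lists. Their replication members summed to 1245 CPM and their mitosis members to 1427 CPM, and 11 and 6 of 64 cells were counted (17.2%, 8.90 to 28.7, and 9.38%, 3.52 to 19.3). Of members with at least 20 UMIs over both classes, 12 of 12 replication and 16 of 17 mitosis members exceeded rod-like cells 2-fold (23.2% of all genes did). These counts depend on the filter, since members such as Rrm2 (66 UMIs against 1 in rod-like cells) met the minimum through the T cell-like class. The 287 UMIs of Hist1h1b lay in 11 cells, the 249 of Top2a in 22 and the 166 of Mki67 in 16.

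The 10 T cell-like cells richest in these transcripts held 88.4% of the replication and mitosis UMIs of the class, and 1 cell held 482 of the 1310 mitosis UMIs. Markers of microglia were present beside them: 12 of 12 were seen in the class and summed to 1997 CPM, against 101 CPM in rod-like and 8162 CPM in microglia-like cells of the same library. T cell markers in the class summed to 3027 CPM, monocyte or macrophage markers to 2768 CPM and rod markers to 3577 CPM. Innate lymphoid cell markers stood at 1099 CPM and NK cell markers at 835 CPM, so the class is mixed by its markers. Without the 8 cells that held at least 10 UMIs of Cx3cr1, P2ry12 and Tmem119, a division chosen after seeing the data, replication stood at 1564 CPM and mitosis at 1454 CPM, so the order of both sums turned. It depends on which cells are kept, and no order of the phases and no mitosis share is read for this class.

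In each of the other classes named here the replication members summed higher than the mitosis members. Conventional and migratory dendritic cell-like cells were at 305 and 313 CPM for replication and 222 and 183 CPM for mitosis, but 10 cells held 74.3% and 81.6% of those UMIs, and 2 cells of each class were counted. Eosinophil-like cells, at 329 and 107 CPM, had 3 of 91 counted. Cone-like cells were at 169 and 212 CPM for replication in PBS and MSC-sEV and 46.6 and 77.5 CPM for mitosis. Muller glia-like cells, which are the retinal glia, were at 119 and 129 CPM and at 37.7 and 39.3 CPM, with 1 of 114 and 0 of 62 cells counted; 0 of 62 allows a share of up to 4.84% by the same limit of 3 cells, and 5.78% by the exact bound.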

How the data were processed

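Per the labels' protocols, papain-digested retinas were enriched for CD45 on magnetic beads and run on 10x Genomics 3′ chemistry, and the authors mapped reads to mm10 and counted them with Cell Ranger 3.0.2. The deposited values are raw UMI counts per gene and barcode, with no normalization; 3′ counting gives no level per length, so levels are compared between cells and not between genes. Cells with 500 UMIs, 300 genes and at most 15% mitochondrial UMIs were kept. They were clustered with scanpy 1.11.5 (2000 variable genes without cell cycle and histone genes, 30 components, 20 neighbours, Leiden resolution 1.0). A cluster was named when at least 3 markers were in 20% of its cells and 2-fold above the rest; doublets were kept in the main values and left out by score in an alternative. Sums have exact Poisson intervals, shares exact binomial ones (beside a 0, also the limit of 3 counts), ratios exact conditional ones; a 0 is set to 3 UMIs in a ratio. With 1 library per group no test over mice was possible. The calls were tested on simulated counts. edgeR 4.0.16 gave the TMM scaling of 1 alternative. Gene positions are from GENCODE M21, promoters from RefSeq. All 35 members may be named, and of each other list the 3 genes with the most UMIs in MSC-sEV microglia-like cells. A result that needs an item withheld here is not reported. The members and lists were chosen with earlier results of these data known.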

Additional observations from a re-analysis of the deposited data

Results flagged for a closer look

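Barcodes that the cell filter left out were looked at as data outside the comparisons. In the 270 such barcodes of the MSC-sEV library the mitosis members stood at 97.2 CPM (69.7 to 132; 41 UMIs), against 24.8 CPM (11.9 to 45.7; 10 UMIs) in the 329 of the PBS library. The replication members stood at 94.8 CPM (67.7 to 129) against 79.5 CPM (54.4 to 112), intervals that overlap. The mitosis level lies near the 102 CPM of MSC-sEV rod-like cells.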

How the results depend on the processing

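The direction, higher in MSC-sEV than in PBS microglia-like cells, held under every setting of the class. In MSC-sEV microglia-like cells the replication and mitosis sums were 762 and 1138 CPM with the stricter cell filter (143 cells, with 25 of the 63 counted cells), 708 and 1049 CPM without the 2% highest doublet scores, and 751 and 1124 CPM at resolution 2.0. Mitosis was 882 CPM with the class by marker score; replication and mitosis were 602 and 885 CPM without cells with Ccr2, Ly6c2 or Plac8. They were 823 and 1200 CPM without mitochondrial and ribosomal protein genes in the total, and 473 and 719 CPM as the mean of each cell's CPM. With cell cycle genes kept among the variable genes they fell to 262 and 151 CPM, the shares to 4.75% and 3.16%, and the members called to 14 of 24 testable. Without Mki67, Top2a and Ccna2 mitosis was 615 CPM and its share 9.12%. The replication share was 27.1% with at least 1 member, 2.68% with at least 3, 41.5% not thinned and 15.9% at 2000 UMIs; the mitosis share was 24.1%, 8.58%, 28.5% and 15.6%, so that it exceeded the replication share at 1000 UMIs and not at 2000. Chosen after seeing the data, the deep cluster alone gave 674 and 979 CPM, the shallow one 522 and 778 CPM with 16 of 26 testable members called, and leaving out the 10 richest cells 384 and 494 CPM. T cell-like sums without cells with Cx3cr1, P2ry12 and Tmem119 were 1564 and 1454 CPM. Depth limits PBS, where the 80 cells of sufficient depth allow a share of up to 3.75% by a limit of 3 cells, or 4.51% by the exact bound. What causes these shifts was not tested beyond the settings' own construction. No paired analysis was possible because each group is 1 library.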
